A study of Canis lupus familiaris with 8 samples.

Results

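Lymphotoxin beta (LTB), tumour necrosis factor (TNF), the TNF-related ligand TRAIL (TNFSF10) and the receptors LTBR, TNFRSF1A and TNFRSF1B are 6 genes of the TNF superfamily, picked by symbol from tables of 35048 gene rows. All 6 were found, each in a single row, and all 6 passed the filter on low counts. The libraries hold RNA of blood mononuclear cells (PBMCs), a preparation of lymphocytes and monocytes, from 8 dogs. The obese group held 5 dogs, a Dachshund (dog 1), a Chihuahua (dog 2), 2 Labrador retrievers (dogs 3 and 4) and a Welsh Corgi (dog 5), and the normal group held 3 Beagles. All normal dogs and no obese dogs were Beagles, so body condition and breed cannot be told apart. No treatment, age, sex or body weight stands in the labels, and each library is named there as a separate dog. The 6 genes were chosen with the difference between the groups already known, that of LTB above all, so their levels and fold changes are given as a description with no test.

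Lymphotoxin beta is a membrane protein of lymphocytes that anchors lymphotoxin alpha (LTA) at the cell surface, and their complex binds the lymphotoxin beta receptor, LTBR, on stromal and myeloid cells. That receptor signals through TRAF3 and the kinase NIK (MAP3K14) to the noncanonical NF-κB factors and is known for its role in building lymph nodes. TNF is made by activated monocytes and lymphocytes and acts through TNFRSF1A, which carries a death domain and is present on most cells, and through TNFRSF1B, which lacks one and is mostly found on leukocytes. TNFSF10 (TRAIL) is an interferon-inducible ligand of death receptors.

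Depth ran from 10264202 to 14910982 counts per library. Expression is in CPM (counts rescaled so that libraries of unequal depth can be compared), from 3′ tag libraries in which each transcript gives a read near its poly(A) end, so levels of different genes were set side by side without a division by length. Obese dog 3 stood apart from the other obese dogs. Its 12 neutrophil markers summed to 5265 CPM, where the other obese dogs had 214.6 to 873.8 CPM and the normal dogs 1225 to 5533 CPM. S100A8 and S100A9 had by far the highest means of these markers in both groups, so they weigh most in the sum. The 10 erythroid markers of obese dog 3 summed to 1197 CPM, against 18.4 to 57.9 CPM in the other obese dogs. T cell markers such as CD3E, and monocyte markers such as CD14 were measured in every group, with none of either list at 0 in all libraries. Fewer cells of a type and less RNA per cell cannot be told apart in such bulk samples.

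LTB was higher in every obese dog than in any normal dog, and the other 5 genes had lower means in the obese group with overlapping values. Log2 fold changes, obese minus normal, were above 0 for 1 of the 6 genes and below 0 for 5, with a median of −0.78 where the median over all 20632 genes tested was 0.09. LTB was the 1 gene past an adjusted p of 0.05 in edgeR, where 0.233% of all genes tested were called (0.0485% as higher and 0.184% as lower in the obese dogs), and the 1 gene whose groups did not overlap, where 10.9% of all genes had that property (5.75% higher and 5.16% lower). Since the choice of the genes used this contrast, nothing is read from these counts. LTB was past the threshold in 9 of 18 alternative fits and in 1 of the 8 that left out a dog, the one without obese dog 3, and it missed the threshold without robust estimation and with the dog number as a block. The fit without obese dog 3 called 2 of the 6, LTB and TNFRSF1A, where it called 8.28% of all genes, and limma-voom with quality weights called 4, LTB, LTBR, TNF and TNFRSF1A, where it called 19.1% of all genes.

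**Figure D1:**
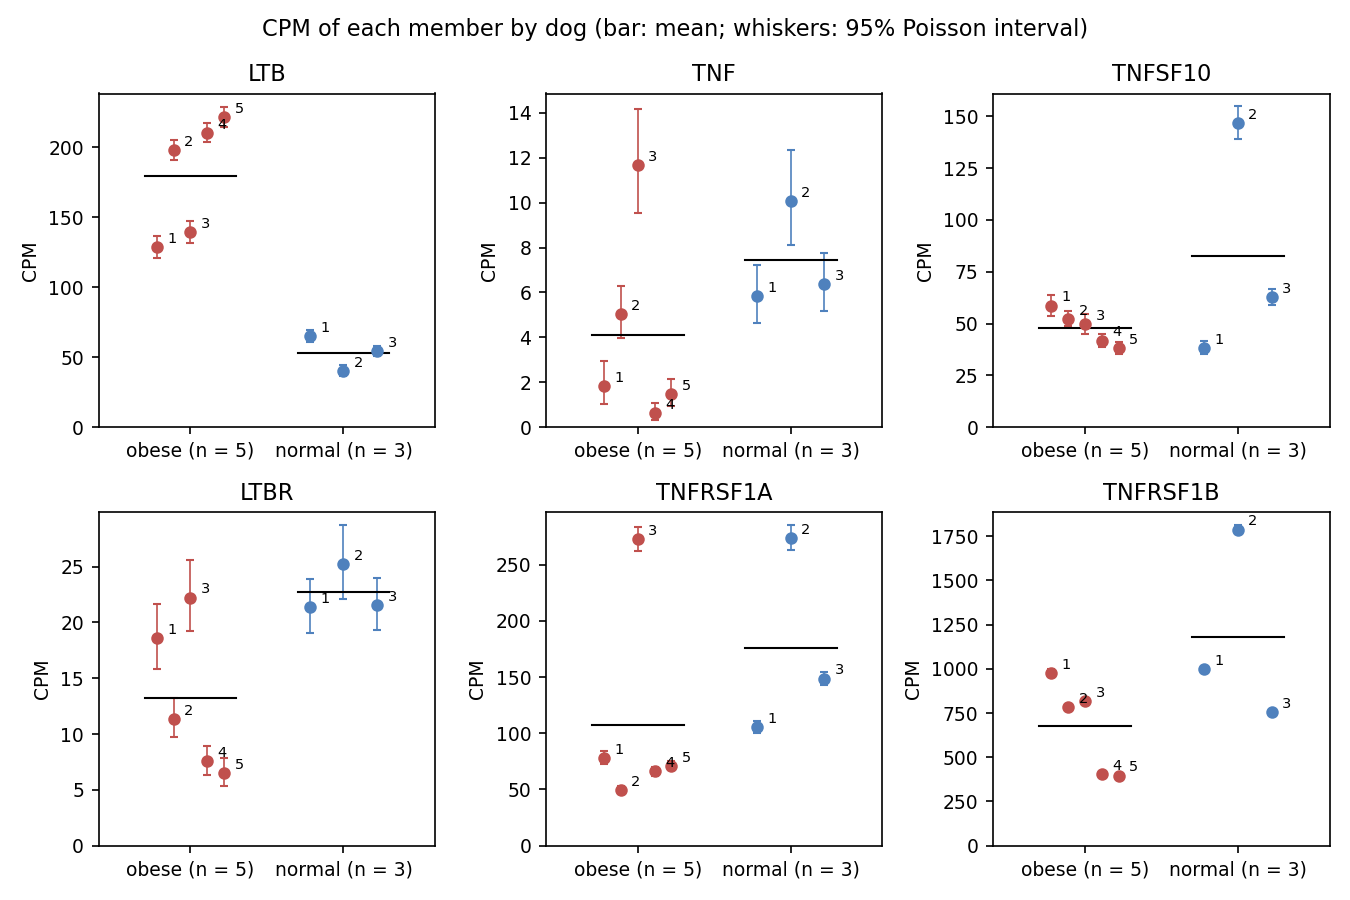
CPM (linear axis from 0) of the 6 genes in each dog, with dog numbers beside the points, the group mean as a bar and the 95% Poisson interval of the count as whiskers. LTB separates the obese dogs (128.5 to 221.5) from the normal dogs (40.3 to 64.8), while the other panels overlap and obese dog 3 sits high for TNF, LTBR and TNFRSF1A.

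Among the ligands, LTB had 128.5, 197.8, 139.5, 210.2 and 221.5 CPM in obese dogs 1 to 5 and 64.8, 40.3 and 54.5 CPM in normal dogs 1 to 3. The obese dogs were all above the normal dogs, and dogs 1 and 3 were the lowest of them. The group means were 179.5 ± 42.5 (SD, n = 5) and 53.2 ± 12.3 (SD, n = 3) CPM, a 3.37-fold higher mean and a log2 fold change of 1.75 with a standard error of 0.289. The relative spread was alike in both groups, with a coefficient of variation of 23.7% in the obese and 23.2% in the normal dogs. The 2 Labrador retrievers, with 139.5 and 210.2 CPM, lay within the range of the 3 other obese dogs. Each LTB value rests on 364 to 3798 counts, and the counting interval of the lowest obese dog, 121 to 136 CPM, lay above that of the highest normal dog, 60.7 to 69.1 CPM.

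TNF was weakly expressed, with 1.81, 5.02, 11.7, 0.613 and 1.46 CPM in obese dogs 1 to 5, against 5.84, 10.1 and 6.38 CPM in normal dogs 1 to 3. The counts behind these values were 11 to 103 per library, and obese dog 4 had the fewest. Obese dog 3 had the highest value of all 8 dogs, and the other 4 obese dogs were below every normal dog. The means were 4.12 ± 4.55 and 7.43 ± 2.30 CPM, and the log2 fold change of −0.86 had a standard error of 0.789, nearly its own size. Without obese dog 3 it was −1.76. TNF overlaps an uncharacterised gene in RefSeq that had 1582 counts over the libraries, more than the 505 of TNF. The strand setting of the counting is not known from these sources, so part of the reads could belong to either gene.

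TNFSF10 had 58.6, 52.2, 49.6, 41.8 and 38.0 CPM in obese dogs 1 to 5, against 38.2, 146.8 and 62.6 CPM in normal dogs 1 to 3. The obese dogs were close together, and normal dog 2 alone stood high. The means were 48.0 ± 8.25 and 82.6 ± 57.0 CPM with a log2 fold change of −0.78 (standard error 0.38). Without normal dog 2 the log2 fold change was −0.10, so 1 library set the size of this difference. The interferon-induced antiviral gene RSAD2 followed the same order in the normal dogs, with 49.3, 1115 and 254.6 CPM, while it had 51.4 to 78.8 CPM in the obese dogs. RSAD2 was named after its values were seen and is among the 5 genes most correlated with TNFSF10 over the 8 libraries (r = 0.942). The shared order is thus part of how RSAD2 was chosen, and a part of interferon in normal dog 2 was not tested.

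LTA, the partner that LTB anchors, was near the limit of detection. It had 0, 8, 0, 25 and 16 counts in the obese and 2, 0 and 5 counts in the normal dogs, and it did not pass the filter on low counts. A count of 0 allows up to 3 counts in that library, so no direction is read from these values.

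Of the receptors, LTBR had 18.6, 11.4, 22.2, 7.58 and 6.53 CPM in obese dogs 1 to 5, against 21.4, 25.2 and 21.6 CPM in normal dogs 1 to 3. Obese dog 3 lay within the normal range and the other 4 obese dogs below it. The normal dogs were close together, with a coefficient of variation of 9.57%, against 52.0% in the obese dogs. The means were 13.3 ± 6.89 and 22.7 ± 2.17 CPM, and the log2 fold change was −0.78 (standard error 0.411).

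TNFRSF1A had 78.2, 49.4, 272.6, 66.1 and 71.2 CPM in obese dogs 1 to 5, against 105.7, 273.9 and 148.7 CPM in normal dogs 1 to 3. Obese dog 3 matched the highest normal dog, and the other 4 obese dogs, at 66.2 ± 12.2 CPM (SD, n = 4), were below every normal dog. With all dogs the means were 107.5 ± 92.9 and 176 ± 87.4 CPM and the log2 fold change was −0.71 (standard error 0.558). Leaving out obese dog 3 gave −1.44 and leaving out normal dog 2 gave −0.27, so both libraries weigh on its size.

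TNFRSF1B was the most abundant of the 6 and ranked 72nd of 20632 genes tested by mean CPM, as a level. It had 976, 781.5, 817.5, 407 and 396 CPM in obese dogs 1 to 5, against 997.7, 1787 and 753.6 CPM in normal dogs 1 to 3. Obese dogs 4 and 5 were below every normal dog, and the other 3 lay within the normal range. The means were 675.6 ± 260.7 and 1179 ± 540.1 CPM with a log2 fold change of −0.80 (standard error 0.39). Without normal dog 2 that value was −0.40. TNFRSF1B overlaps an uncharacterised gene with 13667 counts against its own 83879. It also overlaps an uncharacterised protein-coding gene that has no row among the counted genes, so reads of that gene, if any, were not counted apart.

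The ratio of ligand to receptor combines the higher LTB and the lower LTBR of most obese dogs. The ratio of LTB to LTBR, both in CPM, was 6.28 to 33.9 in the obese dogs, with a median of 17.4, and 1.6 to 3.03 in normal dogs, with a median of 2.53. The ratio was highest in obese dogs 4 and 5 and lowest in normal dog 2, and the groups did not overlap. LTB made up 10.2 to 30.1% of the summed CPM of the 6 genes in obese dogs, against 1.76 to 5.25% in normal dogs, and TNFRSF1B made up the largest share in each of the 8 dogs, 53.9 to 80.9%. The ratio of TNFRSF1B to TNFRSF1A overlapped, at 3.00 to 15.8 in obese dogs against 5.07 to 9.44 in normal dogs, and obese dog 3 had the lowest value. These ratios use the same contrast as the choice of the genes.

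Within the groups, LTB ran against the other 5 genes and those 5 ran together. After the group mean was subtracted from log2 CPM, the Pearson correlation of LTB over the 8 libraries was −0.84 with LTBR, −0.82 with TNFRSF1B, −0.75 with TNFSF10, −0.69 with TNFRSF1A and −0.49 with TNF. All 10 pairs among the other 5 genes had values above 0, from 0.32 for TNF with TNFSF10 to 0.79 for LTBR with TNFRSF1B. These correlations are descriptive, over 8 libraries that each hold a mixture of cells in differing proportions.

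The summed T cell markers separated the groups as LTB did. The 15 markers, among them CD3E, CD5, LCK and IL7R, summed to 1828, 1795, 713.9, 1661 and 2393 CPM in obese dogs 1 to 5 and to 699.1, 557.5 and 472.3 CPM in normal dogs 1 to 3. The obese dogs were again all above the normal dogs, narrowly for dog 3. Every one of the 15 had a fold change above 0, with a median of 1.28 on the log2 scale, 8 had groups without overlap, and 14 had an unadjusted p under 0.05. None of them passed among all genes in edgeR, 9 passed with DESeq2 and 14 with limma-voom, where these 2 fits called 4.98% and 19.1% of all genes. Per 100 CPM of these markers, LTB had 7.03, 11.0, 19.5, 12.7 and 9.26 CPM in obese dogs 1 to 5, against 9.27, 7.22 and 11.6 CPM in normal dogs 1 to 3. On this relative scale the groups overlapped, with means of 11.9 ± 4.75 (SD, n = 5) and 9.35 ± 2.16 (SD, n = 3), and obese dog 3 was the highest. The Pearson correlation of LTB with the summed T cell markers, on log2 values, was 0.873 over the 8 libraries. Other lists had 0.845 (dendritic cells), 0.813 (NK and cytotoxic), 0.755 (platelets), 0.514 (B cells), 0.28 (erythroid), −0.56 (plasma cells), −0.778 (neutrophils) and −0.844 (monocytes). With the group means subtracted the T cell value was 0.516, against 0.934 for NK and cytotoxic, 0.739 for B cell, 0.664 for plasma cell and 0.495 for dendritic cell markers. The platelet, erythroid, monocyte and neutrophil values were then below 0.

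LTB is also expressed by B cells and NK cells, and relative to those markers the groups did not overlap. Per 100 CPM of the 10 B cell markers LTB had 48.3 to 148.9 CPM in obese dogs and, in normal dogs, 35.5 to 45.4 CPM, where the B cell markers summed to 93.7 to 435.1 and 88.6 to 172.2 CPM. Per 100 CPM of the 12 NK and cytotoxic markers it had 52.0 to 95.4 CPM in obese dogs and, in normal dogs, 31.1 to 34.1 CPM. Those markers summed to 134.7 to 425.7 CPM and 118.2 to 208.3 CPM. Of the B cell markers 8 of 10 and of the NK and cytotoxic markers 9 of 12 had a fold change above 0, and neither list had a member past the threshold in edgeR (0 and 4 with an unadjusted p under 0.05; 0 and 1 past the threshold with DESeq2, 0 and 3 with limma-voom). Platelet markers moved with the groups as well, with 164.3 to 1891 CPM in obese dogs and, in normal dogs, 21.1 to 70.4 CPM. All 8 tested were above 0, with a median of 4.23 on the log2 scale, and 7 had groups without overlap. None passed in edgeR, 8 had an unadjusted p under 0.05, and 7 passed with DESeq2 and 3 with limma-voom. Relative to 100 CPM of platelet markers, LTB had a mean of 58.8 CPM in obese and 130.8 CPM in normal dogs, with overlap. The dendritic cell markers, 6 of which were measured, also moved with the groups as a sum, of 67.9 to 186.1 CPM in obese dogs and 43.6 to 65.2 CPM in normal dogs. IRF8, at 97.5 ± 45.3 against 26.9 ± 15.1 CPM, had the highest mean of these genes in both groups and weighs most in the sum. Of these 6 genes 4 had a fold change above 0, and CD1C (−1.92) and BATF3 (−0.15) were below. None passed in edgeR, 2 had an unadjusted p under 0.05 and 2 passed with DESeq2. Per 100 CPM of the 6 dendritic cell markers LTB had 111.9 to 215.5 CPM in obese dogs and 74.0 to 125.2 CPM in normal dogs, which overlapped. The part of the cell types in the difference of LTB was not tested.

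**Figure D2:**
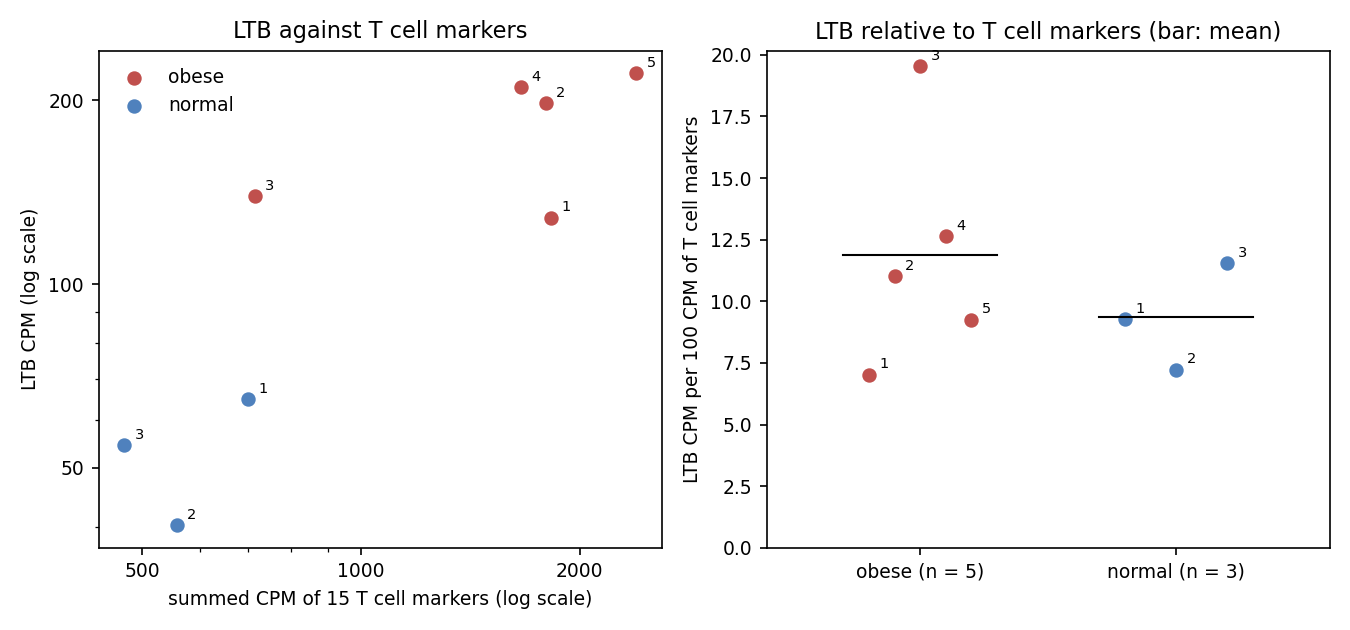
Left, LTB CPM against the summed CPM of 15 T cell markers, both on log axes, with 1 point per dog and its number. Right, LTB CPM per 100 CPM of the T cell markers (linear axis from 0) with the group mean as a bar: the obese dogs (7.03 to 19.5) and the normal dogs (7.22 to 11.6) overlap.

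The summed markers of myeloid cells moved with TNFRSF1A and LTBR and less closely with TNFRSF1B, though the single markers of these lists did not all go the same way. For TNFRSF1B the Pearson correlation on log2 values was 0.642 with the monocyte and 0.698 with the neutrophil sum. With the group means subtracted these values were 0.379 and 0.539. TNFRSF1A ranked the 8 dogs in the order of the summed neutrophil markers except that obese dogs 4 and 5 changed places. Normal dog 2 and obese dog 3 headed both, with 5533 and 5265 CPM of neutrophil markers and 273.9 and 272.6 CPM of TNFRSF1A. The 5 dogs highest in neutrophil markers were also the 5 highest for LTBR, in the same order. For TNF the 4 highest dogs were the 4 highest in neutrophil markers, led by obese dog 3.

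The monocyte markers summed to 1563, 1059, 3557, 1455 and 1366 CPM in obese dogs 1 to 5, against 3071, 4456 and 3254 CPM in normal dogs 1 to 3, and their 5 highest dogs were the same as those of the neutrophil markers. The single markers were divided. Of 11 tested monocyte markers 4 had a fold change below 0 and 7 above, with a median of 0.22 on the log2 scale. VCAN (377.5 against 1470 CPM) and S100A12 (434.4 against 1158 CPM), with the highest means of that list in both groups, were among those below. Of 10 tested neutrophil markers 5 had a fold change below 0 and 5 above. S100A8 (525 against 1752 CPM) and S100A9 (494.6 against 967.6 CPM), which lead that sum, were among those below. CXCR2 (1.17 against 0.993 CPM), MPO (0.922 against 0.635 CPM), MMP9, LTF and CAMP were those above. The neutrophil sum is therefore mostly a reading of S100A8 and S100A9. None of either list passed in edgeR, 2 monocyte and 0 neutrophil markers had an unadjusted p under 0.05, and 1 and 0 passed with DESeq2. With limma-voom 3 monocyte and 4 neutrophil markers passed, all lower in the obese dogs, and without obese dog 3 these counts were 3 and 3. Of all genes these fits called 19.1% and 8.28%. The median of the neutrophil list was −0.17 with all dogs and −1.33 without obese dog 3. Per 100 CPM of the monocyte markers TNFRSF1A had 4.54 to 7.67 CPM in obese dogs and, in normal dogs, 3.44 to 6.15 CPM, and LTBR had 0.478 to 1.19 and 0.566 to 0.696 CPM. Both ranges overlapped. The part of myeloid cells in these values was not tested.

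**Figure D3:**
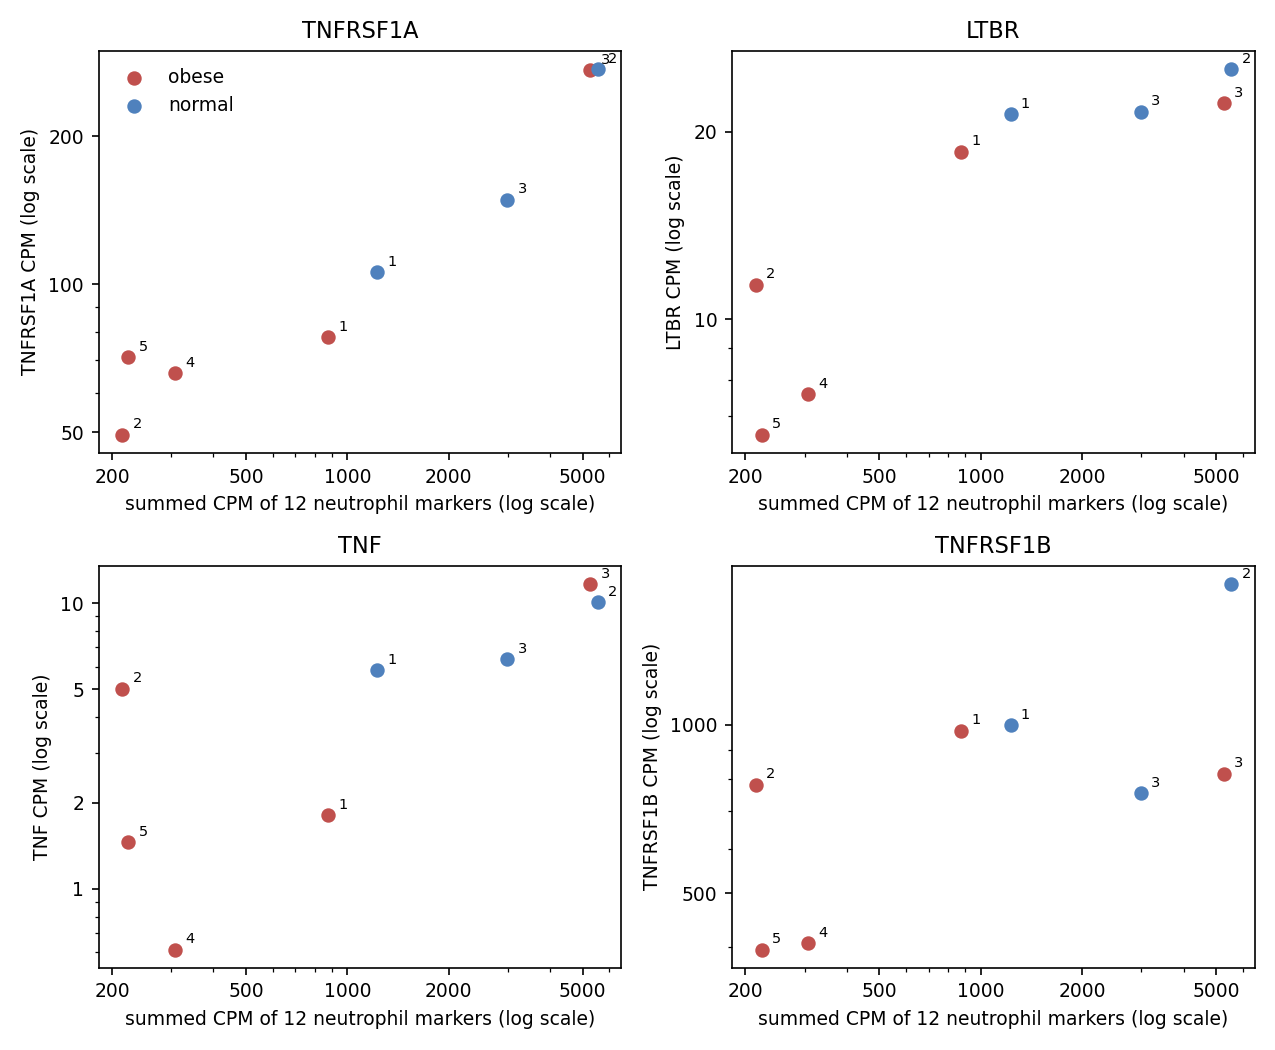
CPM of TNFRSF1A, LTBR, TNF and TNFRSF1B against the summed CPM of 12 neutrophil markers, all on log axes, with 1 point per dog and its number. Obese dog 3 and normal dog 2 lie together at the right of the TNFRSF1A panel, at 272.6 and 273.9 CPM, while TNFRSF1B follows the markers less closely.

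The genes whose levels were most like LTB were found by Pearson correlation of log2 CPM among 8300 named genes with a mean of at least 10 CPM. Over the 8 libraries the first 5 were CASTOR2 (r = 0.977), a regulator of the mTORC1 pathway, the ubiquitin ligase RNF187 (0.975), the chromatin reader BRD3 (0.971), the membrane protein TMEM204 (0.970) and the depalmitoylase ABHD17A (0.969). BRD3 had 43.4, 48.3, 36.0, 75.4 and 81.6 CPM in obese dogs 1 to 5, against 22.9, 13.8 and 19.4 CPM in normal dogs 1 to 3. Like LTB, BRD3 was higher in each obese dog than in any normal dog and lower in obese dogs 1 and 3 than in dogs 4 and 5. In obese dog 2 BRD3, at 48.3 CPM, lay nearest to dog 1, while LTB, at 197.8 CPM, lay nearest to dog 4. BRD3 was picked for its likeness to LTB in these same libraries, so the shared pattern is no separate result. With the group means subtracted a different 5 came first, MCM9 (r = 0.984), SUN1 (0.979), SRSF7 (0.978), NAXD (0.976) and FAM160A1 (0.973). MCM9 is a helicase of DNA repair, SUN1 a nuclear envelope protein and SRSF7 a splicing factor. For TNFRSF1A genes among the nearest over the 8 libraries were GYG1, the primer protein of glycogen (0.994), EHD1 (0.992), TUT7 (0.990) and GMIP (0.988). The nearest to TNFSF10 was RNF31 (0.984), a ubiquitin ligase of the TNF receptor complex, and RSAD2 was also among its first 5 (0.942).

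The rest of the TNF superfamily and its signalling chain was followed in 6 lists of 87 genes, none of them one of the 6 described above. Of these 73 were tested, 9 were below the filter and 5 were not analysed here. In edgeR 1 of the 73 passed the threshold and fell, and none rose, which is 1.37% where 0.233% of all genes were called. The groups did not overlap for 4 genes higher and 6 lower in the obese dogs, 13.7% of the 73 where 10.9% of all genes had that property. The median log2 fold change was 0.13, close to the 0.09 of all genes, and 14 of the 73 had an unadjusted p under 0.05. DESeq2 passed 4 of the 73 and limma-voom 20, where these fits called 4.98% and 19.1% of all genes. The same shares stand beside the counts of both fits in each list. How many of all genes had an unadjusted p under 0.05 was not counted, so no such count is read as a result about a list.

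Ligands other than LTB, TNF and TNFSF10 had a median log2 fold change of 0.73, with 8 of 12 tested genes above 0 and 4 below. None passed in edgeR, 5 had an unadjusted p under 0.05, and 1 passed with DESeq2 and 6 with limma-voom. TNFSF8, the CD30 ligand of activated T cells, had 80.8, 58.1, 59.2, 39.3 and 62.0 CPM in obese dogs 1 to 5, against 28.8, 25.9 and 17.7 CPM in normal dogs 1 to 3, so that its groups did not overlap. Its log2 fold change of 1.31 (standard error 0.294) had an adjusted p of 0.106 (edgeR). CD40LG, the helper T cell ligand of CD40, had 15.0, 16.5, 3.86, 14.7 and 16.5 CPM against 5.27, 6.42 and 3.70 CPM, and obese dog 3 lay among the normal dogs. The B cell survival factor TNFSF13B (BAFF) had 16.8 ± 7.14 against 7.83 ± 2.23 CPM (adjusted p = 0.261, edgeR). TNFSF9, the 4-1BB ligand of antigen-presenting cells, had 19.0 ± 10.6 against 48.6 ± 27.0 CPM (adjusted p = 0.24, edgeR). Without obese dog 3, CD40LG, TNFSF13B and TNFSF8 passed as higher and TNFSF9 as lower, in a fit that called 8.28% of all genes.

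Of the other receptors 14 were tested, with 10 above 0, 4 below and a median of 0.42. TNFRSF17 (BCMA), the plasma cell receptor for BAFF and APRIL, was the 1 gene that fell. It had 2 to 19 counts in the obese and 81 to 265 counts in the normal dogs, or 0.647 ± 0.395 against 14.1 ± 4.48 CPM (a log2 difference of −4.39 ± 0.537 as standard error, with an adjusted p of 0.0228 in edgeR). The 10 plasma cell markers, which do not hold TNFRSF17, summed to 247.8 to 452.8 CPM in obese dogs and, in normal dogs, 377.3 to 1427 CPM. Of 9 tested, 8 had a fold change below 0, none passed in edgeR, 7 had an unadjusted p under 0.05, and 5 passed with DESeq2 and 6 with limma-voom. The part of plasma cells in the fall of TNFRSF17 was not tested. TNFRSF17 lost its call without obese dog 1, 2 or 4 or normal dog 1 or 3.

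**Figure D4:**
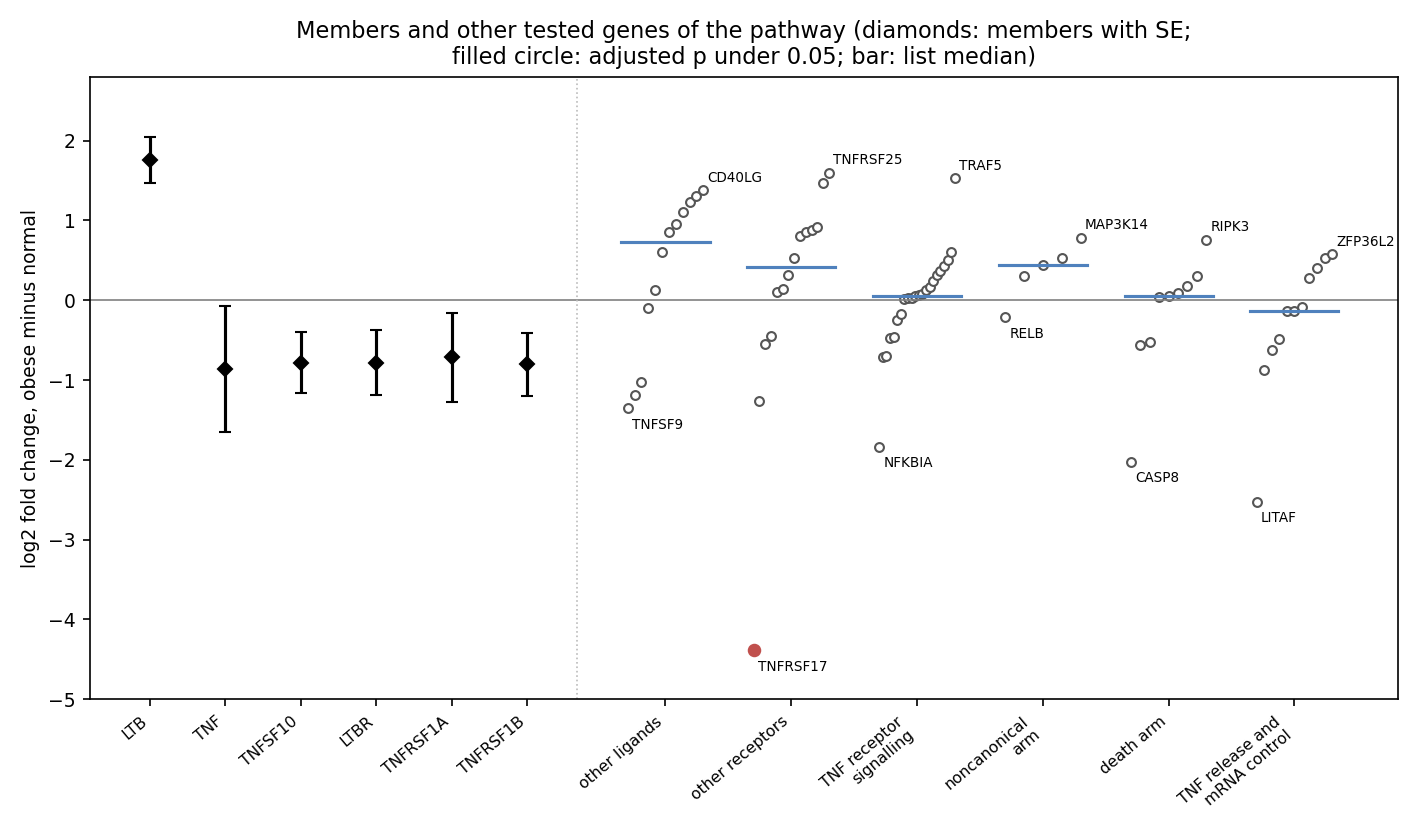
Log2 fold changes, obese minus normal, of the 6 genes (diamonds, with the standard error as whiskers) and of the 73 other tested genes in 6 lists (circles, with the list median as a bar). TNFRSF17, at −4.39, is the 1 filled circle, a gene past the threshold, and the medians of the lists lie between −0.13 and 0.73.

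Genes of the complex that forms on the TNF receptors had a median of 0.06, with 15 of 22 above 0. None passed in edgeR, 2 had an unadjusted p under 0.05, and 0 passed with DESeq2 and 4 with limma-voom. NFKBIA, the NF-κB inhibitor that is itself an NF-κB target, had 428.5, 557.8, 785.7, 157.7 and 108.4 CPM in obese dogs 1 to 5, against 989.5, 2486 and 879.8 CPM in normal dogs 1 to 3. The groups did not overlap, and the log2 fold change was −1.83, with a standard error of 0.616 and an adjusted p of 0.22 in edgeR. TRAF5, an adaptor of lymphocyte receptors, had 22.2 ± 15.8 against 7.71 ± 1.95 CPM (adjusted p = 0.243, edgeR). The kinases MAP3K7 (TAK1) and its adaptor TAB2 had log2 fold changes of −0.46 and 0.50 and did not pass in edgeR, and MAP3K7 passed with limma-voom.

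The list drawn up for the noncanonical arm, which the lymphotoxin beta receptor engages, had a median of 0.45 in 5 tested genes, 4 of them above 0. TRAF6 was counted in this list and its median, though its place in the arm cannot be judged from these data. None passed in edgeR, DESeq2 or limma-voom, and 0 had an unadjusted p under 0.05 in edgeR. MAP3K14, or NIK, the kinase that starts this arm, had 120.1, 190.7, 61.1, 128 and 76.7 CPM in obese dogs 1 to 5, against 74.8, 55.0 and 71.3 CPM in normal dogs 1 to 3, with obese dog 3 inside the normal range. NFKB2, the precursor processed in this arm, had 16.8 ± 2.97 against 12.3 ± 2.08 CPM, TRAF6 had 62.5 ± 21.0 against 43.1 ± 7.67 CPM, and TRAF3, the brake on NIK, had 131.7 ± 32.7 against 106.8 ± 24.3 CPM.

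In the death arm the median was 0.05, with 6 of 9 genes above 0, none past the threshold in edgeR, 2 with an unadjusted p under 0.05, and 1 called with DESeq2 and 2 with limma-voom. CASP8, the initiator caspase of death receptors, had 13.8, 19.4, 14.5, 5.97 and 7.58 CPM in obese dogs 1 to 5, against 34.7, 69.2 and 45.5 CPM in normal dogs 1 to 3. The groups were well apart, and the log2 fold change of −2.02 (standard error 0.401) had an adjusted p of 0.0747 (edgeR), and it passed with DESeq2, with limma-voom and without obese dog 3. CFLAR (FLIP), which restrains CASP8, had 121.4 ± 29.3 against 173.9 ± 12 CPM, DIABLO had 33.4 ± 7.98 against 49.3 ± 8.61 CPM, and the necroptosis kinase RIPK3 had 56.8 ± 18.9 against 33.5 ± 7.37 CPM.

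Genes that release TNF from the membrane or act on its transcription or mRNA had a median of −0.13, with 4 of 11 above 0, none past the threshold in edgeR and 2 with an unadjusted p under 0.05. LITAF, named for lipopolysaccharide-induced TNF expression, had 53.2, 45.1, 92.6, 117.8 and 122.1 CPM in obese dogs 1 to 5, against 252.4, 856.2 and 376.7 CPM in normal dogs 1 to 3. Its groups did not overlap, and the log2 fold change of −2.52 (standard error 0.449) had an adjusted p of 0.0591 (edgeR). LITAF passed with DESeq2, with limma-voom, without obese dog 3 and with a filter of at least 5 CPM in 3 libraries. ADAM17, the protease that sheds TNF and its receptors, had 54.3 ± 12.6 against 83.3 ± 15.0 CPM. The mRNA decay factors ZFP36L1 and ZFP36L2 had log2 fold changes of 0.53 and 0.57 and did not pass in edgeR. Of this list DESeq2 passed 1 gene, LITAF, and limma-voom 4, which were ADAM17, LITAF, RHBDF2 and ZFP36L2.

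The genes lie in 2 chromosomal pairs in the RefSeq gene order of the dog. TNF and LTB are direct neighbours beside LTA in the class III part of the major histocompatibility complex, and TNFRSF1A and LTBR are separated by SCNN1A only. In the LTB and TNF neighbourhood 0 of 10 tested genes passed in edgeR, 0 had an unadjusted p under 0.05, and DESeq2 passed 0 and limma-voom 1, BAG6. The log2 fold changes of the nearest tested genes were 0.87 for NFKBIL1, −0.14 for LST1, 0.75 for NCR3, 0.13 for AIF1 and 0.05 for PRRC2A, each with a standard error of 0.314 to 0.722. LTB, at 1.75, was above all of them and its neighbour TNF, at −0.86, below. Farther off, BAG6 had 0.49 and CSNK2B 0.35. LTB overlaps an uncharacterised gene that had 187 counts against the 15063 of LTB.

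Around LTBR and TNFRSF1A the 12 tested genes, which do not include the pair, had a median of −0.06. None passed in edgeR, 5 had an unadjusted p under 0.05, and DESeq2 passed 0 and limma-voom 6. On one side PLEKHG6 had −1.35 and SCNN1A, between the pair, −0.82. On the other side CD27, a costimulatory receptor of the same family on lymphocytes, had 0.86, TAPBPL, of antigen loading, 0.86 and VAMP1 1.11, while MRPL51 had −0.76. TAPBPL had 25.4 to 44.2 CPM in obese dogs and, in normal dogs, 16.4 to 17.5 CPM without overlap (adjusted p = 0.197, edgeR). SCNN1A had 29.1 CPM in obese dog 3, 2.72 to 5.46 CPM in the other obese dogs and 8.79, 24.1 and 17.1 CPM in the normal dogs, highest in obese dog 3 and normal dog 2 as TNFRSF1A was. The adhesion protein CD9 had a log2 fold change of 2.22, NCAPD2 −0.70 and GAPDH, whose reads can be shared with processed copies, −1.02. None of them passed in edgeR, and GAPDH passed with limma-voom.

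**Figure D5:**
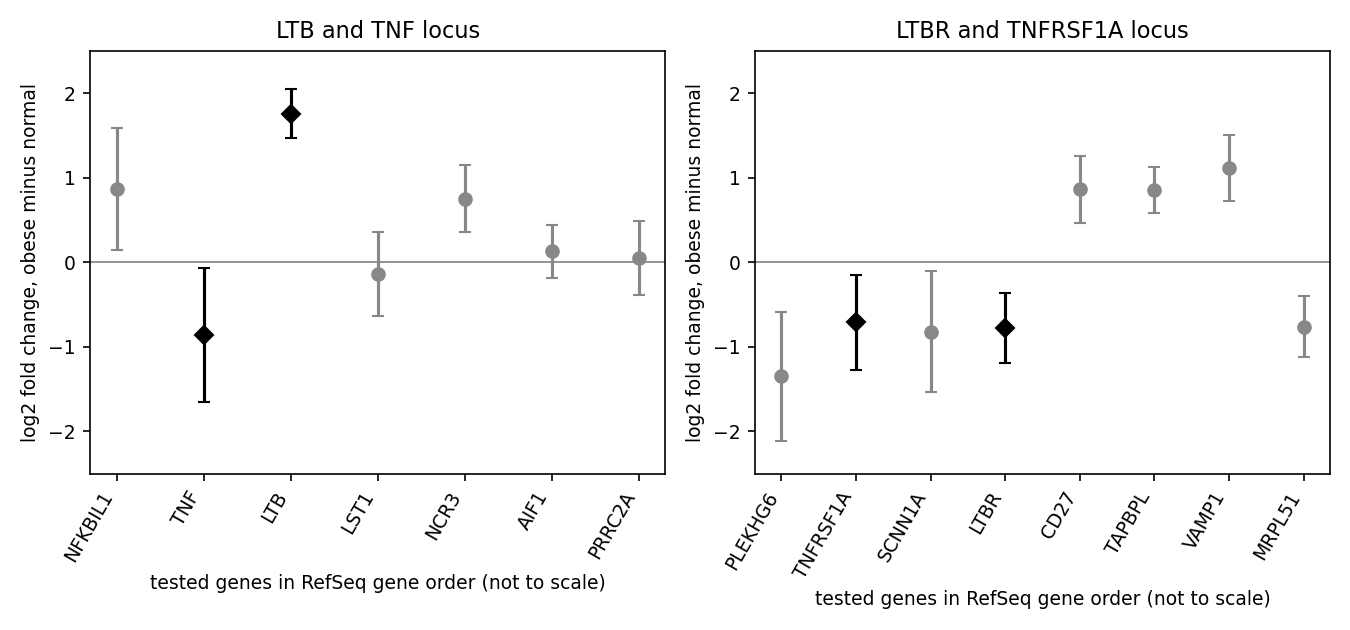
Log2 fold changes, obese minus normal, with standard errors, of the tested named genes within 5 places of LTB (left) and of LTBR (right) in RefSeq gene order, not to scale. Black diamonds are the described genes: LTB (1.75) and its neighbour TNF (−0.86) lie on opposite sides of 0, and TNFRSF1A (−0.71) and LTBR (−0.78) on the same side.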

How the data were processed

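Libraries were made from Trizol-extracted RNA with the Lexogen QuantSeq kit, per the labels' protocols. What the authors deposited for each dog is a table of raw counts by gene symbol, in whole numbers. Bowtie2 and bedtools were used, per the submitters' processing notes. Neither the roles of these tools nor the build, annotation or strand setting is given in the sources used here. Of rows that repeat a symbol (411), the one with the highest mean kept it. The model was fitted with edgeR 4.0.16 under R 4.3.3: filterByExpr (20632 genes), TMM, and robust glmQLFit and glmQLFTest, adjusted by Benjamini-Hochberg over all genes at 0.05. CPM values use the TMM-scaled sizes; log2 CPM for correlations has a prior count of 2. Standard errors are the size of the log2 fold change over the root of F. The step was tested on simulated data. Alternatives used DESeq2 1.42.0 and limma 3.58.1. Intervals are exact Poisson and cover counting error only. Gene order and overlaps are from RefSeq (UU_Cfam_GSD_1.0), used for names and neighbours only. The genes and lists were chosen with earlier results of these data known. Named were the 6 genes, list genes past the threshold or else up to 4 with the smallest p, tested locus genes within 5 places, and the 5 most alike in pattern. RSAD2, LTA and genes named with a marker sum were named after their values were seen. A gene that the rule names is not reported here. No sequences are shown.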

Additional observations from a re-analysis of the deposited data

Results flagged for a closer look

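In the group of 5 obese dogs, 3 of the 35 genes screened had a dog far from the other 4, with a gap to the nearest dog above 0.71 of the whole range; chance flags about 1 in 20 groups. TNFRSF1A had 272.6 CPM in obese dog 3, where the nearest obese dog had 78.2 CPM (gap 0.871 of the range). CD40LG had 3.86 CPM in obese dog 3, below the nearest at 14.7 CPM (gap 0.862). ZFP36L2 had 927 CPM in obese dog 2, above the nearest at 781.9 CPM (gap 0.774). The same obese dog 3 had 5265 CPM of neutrophil markers and 713.9 CPM of T cell markers, the highest and the lowest of the obese group, and their part in the values of TNFRSF1A and CD40LG was not tested.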

How the results depend on the processing

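The 6 genes kept the sign of their log2 fold change in all 18 alternatives, which ran from 1.54 to 1.93 for LTB, −2.12 to −0.58 for TNF, −1.11 to −0.10 for TNFSF10, −1.27 to −0.43 for LTBR, −1.44 to −0.27 for TNFRSF1A and −1.07 to −0.36 for TNFRSF1B. Over the fits that left out 1 dog, TNFSF10 ran from −1.11 to −0.10, the latter without normal dog 2, and every other value moved by less than the spread between dogs. The number of other pathway genes called, 1 in edgeR, was 2 with at least 5 CPM in 3 libraries, 4 with DESeq2, 20 with limma-voom and quality weights, and 0 to 9 without 1 dog, with 9 without obese dog 3. Over all genes the 48 calls became 1027 with DESeq2, 3942 with limma-voom and 1684 without obese dog 3. The cause was not tested. With the dog number as a replicate block, 0 pathway genes and 0 of all genes were called. The labels state no pairing of same-numbered dogs. Same-numbered dogs had correlations of −0.03, −0.21 and 0.01 over genes, and differently numbered dogs had −0.26 to 0.23. With 3 normal dogs such values can neither show nor exclude a pairing. Rescaling moved the median of all genes little: 0.09 by TMM, −0.03 by upper-quartile and 0.08 by DESeq2 factors. Depth limits TNF most, at 11 to 103 counts.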
